A study of Mus musculus with 8 samples.

Results

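The 7 genes described here are markers and regulators of naive pluripotency in mouse embryonic stem cells together with an antagonist of Nodal: Esrrb, Klf2, Sox2, Zfp42, Gdf3, Lefty1 and Pecam1. They were found by symbol among 9930 named genes with a probe. Together they had 8 probes, 2 for Sox2 and 1 for each of the others, and all 7 had enough values to be tested. They were selected on their measured log2 ratios on these same arrays, namely the untreated ratios, the mean over both conditions and the difference between conditions. Their values are therefore given as a description.

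RNA of HM-1 cells was hybridised together with that of R1 cells, both lines being mouse embryonic stem cells, on 8 cDNA arrays with 2 colours. On the 4 nocodazole arrays both lines had been given the drug, which takes microtubules apart and holds cells in mitosis, and on the 4 untreated arrays neither had. HM-1 lacks Hprt and is used for gene targeting. Each line is a single line, the labels give no dose or length of treatment, and they do not say whether replicates came from separate cultures. HM-1 carried Cy5 on nocodazole replicates 1, 2 and 3 and on untreated replicates 1 and 2; on nocodazole replicate 4 and untreated replicates 3 and 4 it carried Cy3.

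Naive embryonic stem cells hold a network of transcription factors, in which Sox2 partners Oct4, and Esrrb and Klf2 act with them to keep differentiation genes silent and self-renewal genes active. Esrrb is an orphan nuclear receptor that binds DNA as a monomer, Klf2 is a zinc finger factor of the Krüppel-like family, and Zfp42, also called Rex1, is a zinc finger protein that serves as a standard mark of the naive state. Gdf3 is a ligand of the TGF-beta family made by pluripotent cells. Lefty1 is secreted in response to Nodal and SMAD signalling, binds Nodal and its co-receptor, and so restrains the pathway that induces it. Pecam1 is an adhesion molecule of the immunoglobulin family, best known from endothelium and also present on the surface of naive stem cells.

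Every value below is a log2 ratio between the lines on 1 array, centred on the array's median, with the sign of the deposited table. It could not be settled which line is the numerator, so no line is called higher. If the table held ratios of dyes, the arrays with HM-1 in Cy3 would have the opposite sign, so values with those arrays turned are given beside the deposited ones. Some deposited values code a ratio of 100000. Their median was positive on each array with HM-1 in Cy5 and negative on each with HM-1 in Cy3. A table of dye ratios would hold this code with the same sign throughout, so the code goes with Cy3 arrays turned before deposit. It does not tell which line is the numerator. Over all features, arrays of opposite label correlated negatively as deposited (below). Treated and untreated cells of a line never shared an array. A difference between conditions is thus a difference in the ratio between the lines, and says nothing of what nocodazole did to either line alone. Fewer cells of a kind and less RNA per cell cannot be told apart in such bulk samples. A ratio also gives no level, so the labelled cell type could not be checked from marker levels: no probe was named Nanog or Dppa5a, and Pou5f1, which encodes Oct4, had a value on 3 nocodazole arrays and 1 untreated array.

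The arrays held between 17928 and 19445 values, and the standard deviation of the log2 ratios lay between 0.78 and 0.91 on 7 arrays and was 1.28 on nocodazole replicate 3. Over all features, arrays with the same dye label correlated at a Pearson's r of 0.02 to 0.22 and arrays with opposite labels at -0.23 to -0.01. Nocodazole replicate 1 stood apart, with the sign as deposited, in markers of primitive endoderm, with a median of 0.39 over 18 genes there against -0.66 to -0.3 on the other three nocodazole arrays. The untreated medians lay between -0.59 and -0.03 as deposited, so replicate 1 alone had a positive one. With the Cy3 arrays turned nocodazole replicate 4 had a median of 0.30, close to that of replicate 1. Untreated replicates 3 and 4 were then at 0.03 and 0.24. Group means of the 7 genes are also given without nocodazole replicate 1. No intensities were used here, and spot brightness is unknown. A dim spot can give a ratio of small integers: on each array 11% to 19.4% of values matched such a ratio, of integers up to 10 and within 0.0015 in log2, where 4.29% to 4.98% matched after the offset was shifted.

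The RefSeq promoter table (build GRCm38.p6) held entries for 4 of the 7 genes: Esrrb, Klf2, Sox2 and Zfp42, while Gdf3, Lefty1 and Pecam1 had none. The 250 bases before the transcription start are shown for Zfp42, which held matches to the motifs searched, and for Esrrb and Klf2, the genes with the widest fitted changes between the conditions in this set. The capitals mark the octamer ATTTGCAT, bound by POU factors such as Oct4, and CCACACCC, the reverse strand of a box bound by Krüppel-like factors.
Zfp42, minus strand of chr8:43307010-43307259: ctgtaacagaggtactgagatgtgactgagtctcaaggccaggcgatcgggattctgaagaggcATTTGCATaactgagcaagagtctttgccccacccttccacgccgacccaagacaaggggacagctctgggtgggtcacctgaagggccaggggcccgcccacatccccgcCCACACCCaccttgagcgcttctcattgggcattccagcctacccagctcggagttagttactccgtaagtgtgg
Esrrb, first of 2 starts, plus strand of chr12:86360867-86361116: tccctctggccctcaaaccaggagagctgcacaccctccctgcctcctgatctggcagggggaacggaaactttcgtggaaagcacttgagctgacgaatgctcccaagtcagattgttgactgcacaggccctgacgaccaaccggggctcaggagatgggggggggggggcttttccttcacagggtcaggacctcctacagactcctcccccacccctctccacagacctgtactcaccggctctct
Klf2, plus strand of chr8:72318812-72319061: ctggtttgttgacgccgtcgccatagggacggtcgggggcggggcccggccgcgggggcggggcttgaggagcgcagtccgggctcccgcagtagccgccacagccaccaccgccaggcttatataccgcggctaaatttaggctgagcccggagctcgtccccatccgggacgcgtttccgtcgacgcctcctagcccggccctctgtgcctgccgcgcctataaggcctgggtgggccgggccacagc

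Motifs were searched on both strands, none of them overlapping another here: ATGCAAAT (octamer), GGGTGTGG (Krüppel-like box), TCAAGGTCA (Esrrb), AACAATG (SOX factors), TTCCNGGAA (STAT factors) and AATCCACA (Foxh1). In Zfp42 the octamer lay 186 to 179 bases before the start and the Krüppel-like box 75 to 68 bases before it. Of all 32851 promoter stretches of this length, 1.6% held the octamer and 3.2% the Krüppel-like box. The other motifs were held by 0.4% (Esrrb), 3.3% (SOX), 0.9% (STAT) and 0.7% (Foxh1) of all stretches. None of these letters occurred in the stretches of Esrrb, Klf2 or Sox2. The base composition differed: G and C made up 72.0% of the Sox2 stretch, 71.2% of that of Klf2, 60.8% and 52.0% at the first and second start of Esrrb and 58.4% in Zfp42, where the median of all stretches was 52.4%.

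Esrrb had the widest separation between the conditions. Its ratio was 2.21, 2.86 and 1.01 on nocodazole replicates 2, 3 and 4, with no value on replicate 1, against 0.26, 0.15, -0.14 and -0.01 on untreated replicates 1 to 4. All 3 nocodazole values lay above all 4 untreated ones with the sign as deposited. The means were 2.03 ± 0.94 with nocodazole (SD, n = 3) and 0.06 ± 0.18 untreated (SD, n = 4). With nocodazole 99.8% of 9489 named genes had a lower mean ratio than Esrrb, and untreated 64.4% of 8947 did. With the Cy3 arrays turned these shares were 99.5% and 75.2%, and 1 of the 3 nocodazole values was negative. Among features with the same pattern of values, 3 with nocodazole and 4 untreated, 20 of 884 (2.26%) had all nocodazole values above all untreated ones. Over all 14015 features tested this held for 1.23%, and groups that did not overlap in either direction were found for 2.7%. Esrrb and Lefty1 were positive on every nocodazole array that gave a value, as were 6.4% of features with at least 3 such values. With the Cy3 arrays turned the groups of Esrrb overlapped, and neither gene was positive on every nocodazole array. The shares in that reading were 5.32% of the 884 features, 2.88%, 4.59% and 8.96%. The fitted change, nocodazole minus untreated with a term for the dye, was 1.83 (SE 0.33) with a range of 1.55 to 2.33 over fits that each lacked 1 array. It was 0.96 (SE 0.74) with the Cy3 arrays turned.

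Of the 7 values of Esrrb, 3 equalled a ratio of small whole numbers, namely 5 to 1 on nocodazole replicate 2, 5 to 3 on nocodazole replicate 4 and 1 to 1 on untreated replicate 2. On these arrays 11.4%, 17.4% and 16.8% of all values were such ratios. With those values left out a single nocodazole value remained, and the gene could not be fitted. The part of spot brightness in the ratio of Esrrb was not tested.

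Klf2 had ratios of -0.95, 0.70, 0.53 and -1.44 on nocodazole replicates 1 to 4, against 0.54, 0.45, 0.88 and 0.83 on the untreated arrays. As deposited, the untreated arrays agreed in sign, while the nocodazole arrays split into a pair above 0 and a pair below it, so that the groups overlapped. By the labels, the negative arrays carried HM-1 in Cy5 (replicate 1) and in Cy3 (replicate 4), and the part of the dye in the split was not tested. The means were -0.29 ± 1.07 with nocodazole and 0.68 ± 0.21 untreated (SD, n = 4 each), and the nocodazole mean was -0.07 without replicate 1 and 0.10 without replicate 4, a change of sign. Untreated, 95.3% of 8947 named genes had a lower mean ratio with the sign as deposited and 29.0% with the Cy3 arrays turned. Its fitted change was -1.08 (SE 0.52), and without nocodazole replicate 4 it was -0.40. Turned, it was 0.56 (SE 0.63), a change of sign. Being positive on all 4 untreated arrays was shared by 6.54% of features with a value on each. Turned, 2 of the 4 untreated values of Klf2 were negative. The value of 0.54 on untreated replicate 1 equalled a ratio of 6 to 5.

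Sox2 was read by 2 probes. Probe 6891 had ratios of 0.47, -0.15, -0.03 and -0.07 on nocodazole replicates 1 to 4, against -0.03, 0.34, -0.04 and 0.21 untreated. Probe 20333 had 0.01, -0.41, -0.63 and -0.37 with nocodazole, against -0.43, 1.88, -0.05 and -0.56 untreated. Probe 20333 was below 0 on 6 of the 8 arrays and reached 1.88 on untreated replicate 2, a value that equalled a ratio of 10 to 3. Its value of -0.56 on untreated replicate 4 equalled a ratio of 4 to 5. The gene mean was -0.15 ± 0.26 with nocodazole and 0.17 ± 0.64 untreated (SD, n = 4 each). Without nocodazole replicate 1 the nocodazole mean was -0.28. Without untreated replicate 2 the untreated mean was -0.15, so that 1 array gave the untreated mean its sign.

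Zfp42 had the narrowest range over the arrays of the 4 transcription factors. Its ratios were -0.21, 0.04, 0.23 and 0.16 with nocodazole, against 0.27, 0.01, -0.12 and -0.27 untreated. No value lay further than 0.27 from 0, and the groups overlapped. The means were 0.06 ± 0.19 with nocodazole and -0.03 ± 0.23 untreated (SD, n = 4 each), both within the spread between arrays, and the nocodazole mean was 0.14 without replicate 1. The median standard deviation over all features was 0.39 with nocodazole and 0.34 untreated, and Zfp42 lay below both. None of its 8 values was a ratio of small whole numbers.

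Gdf3, the ligand, had the widest spread of the 7 genes on the untreated arrays. Its ratios were -0.37, -0.28, -0.71 and 1.16 with nocodazole, against 0.86, -1.73, 2.52 and 4.34 untreated. The untreated standard deviation of 2.58 exceeded that of 98.5% of 14446 features. The means were -0.05 ± 0.83 with nocodazole and 1.50 ± 2.58 untreated (SD, n = 4 each), and the groups overlapped. The nocodazole mean was 0.06 without replicate 1. The untreated mean was 0.55 without untreated replicate 4 and 2.57 without untreated replicate 2, so that single arrays moved it by more than 1.5 times.

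Lefty1, the antagonist, was the only 1 of the 7 with a positive ratio on all 8 arrays with the sign as deposited. It was at 0.06, 0.34, 0.81 and 0.33 with nocodazole, against 0.62, 0.61, 0.17 and 0.50 untreated. A positive ratio on all 8 arrays was found for 69 of 11681 features measured on each (0.591%). When turned, Lefty1 had 3 positive and 1 negative values with nocodazole and 2 of each untreated, and 2.3% of features, with none of the 7 genes among them, were positive on all 8. Lefty1 was chosen with these values in view, and the share is no test. The groups overlapped, with means of 0.39 ± 0.31 and 0.48 ± 0.21 (SD, n = 4 each, nocodazole and untreated). Without nocodazole replicate 1 the nocodazole mean was 0.49. No probe was named Lefty2, a close paralogue of Lefty1, and whether the Lefty1 probe also binds its transcript was not tested.

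Pecam1 had ratios of -0.16, 0.21, 0.51 and 0.72 with nocodazole, against -0.03, 0.06, 1.12 and 0.70 untreated. Both groups held 1 negative and 3 positive values, and they overlapped. The value of 0.51 on nocodazole replicate 3 equalled a ratio of 5 to 3. The means were 0.32 ± 0.38 and 0.46 ± 0.55 (SD, n = 4 each, nocodazole and untreated), and the nocodazole mean was 0.48 without replicate 1.

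**Figure D1:**
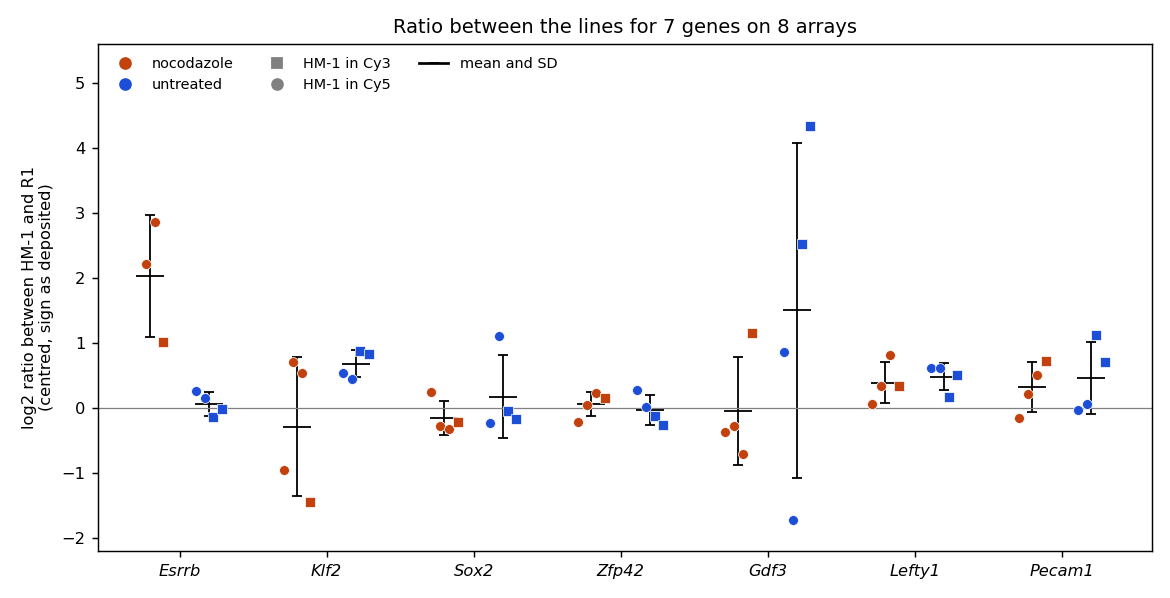
Centred log2 ratio between HM-1 and R1 (vertical axis, sign as deposited) for each of the 7 genes on the 4 nocodazole arrays (orange, left) and the 4 untreated arrays (blue, right); squares are arrays with HM-1 in Cy3, circles those with HM-1 in Cy5, and black bars give mean and SD. Esrrb is the gene whose nocodazole values (1.01 to 2.86) all lie above its untreated values (-0.14 to 0.26), and Lefty1 is above 0 on every array, both with the sign as deposited.

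With the sign as deposited, Gdf3 and Pecam1 separated by dye label, while their conditions overlapped. Pecam1 lay between 0.70 and 1.12 on the 3 arrays with HM-1 in Cy3 and between -0.16 and 0.51 on the 5 arrays with HM-1 in Cy5. Gdf3 lay between 1.16 and 4.34 with HM-1 in Cy3 and between -1.73 and 0.86 with HM-1 in Cy5. Both genes thus had every Cy3 array above every Cy5 array, which 459 of 11681 features with a value on all arrays did (3.93%). The opposite order, every Cy3 array below every Cy5 array, was found for a further 902 (7.72%). The separation depended on the sign read on the Cy3 arrays. Turned, Gdf3 lay between -4.34 and -1.16 with HM-1 in Cy3 and between -1.73 and 0.86 with HM-1 in Cy5, which overlap. Pecam1 lay between -1.12 and -0.70 with HM-1 in Cy3, all below its Cy5 values. Lefty1 lay between -0.50 and -0.17 with HM-1 in Cy3 and between 0.06 and 0.81 with HM-1 in Cy5, also without overlap. For Lefty1 this follows from its positive ratio on every array as deposited, and is no separate result. Every Cy3 array lay below every Cy5 array for 2.2% of features in that reading, and above every Cy5 array for 2.62%. For Esrrb, Klf2, Sox2, Zfp42 and Lefty1 the deposited ranges of the dye labels overlapped. Lefty1 averaged 0.34 ± 0.17 as deposited with HM-1 in Cy3 (SD, n = 3) and 0.49 ± 0.29 with HM-1 in Cy5 (SD, n = 5).

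**Figure D2:**
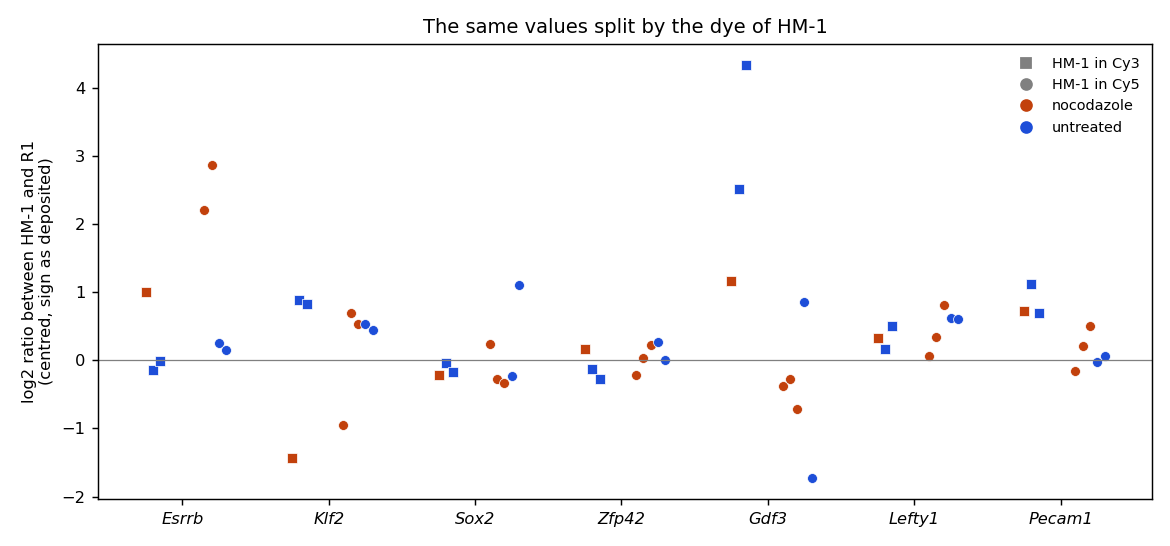
The values of the 7 genes (vertical axis, centred log2 ratio, sign as deposited) split by the dye that HM-1 carried, Cy3 (squares, left) and Cy5 (circles, right), coloured by condition (nocodazole orange, untreated blue). For Gdf3 and Pecam1 all 3 Cy3 arrays lie above all 5 Cy5 arrays, and for the other genes the dye labels overlap; turning the Cy3 arrays changes this.

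With the arrays that carried HM-1 in Cy3 turned, Esrrb averaged 1.35 ± 2.07 with nocodazole (SD, n = 3) and 0.14 ± 0.10 untreated (SD, n = 4), and its groups overlapped. Klf2 was at 0.43 ± 1.0 with nocodazole and -0.18 ± 0.78 untreated (SD, n = 4 each), both opposite in sign to the deposited reading. Lefty1 was at 0.22 ± 0.48 and 0.14 ± 0.57, and Pecam1 at -0.04 ± 0.53 and -0.45 ± 0.56 (SD, n = 4 each, nocodazole and untreated). Gdf3 was negative on all 4 nocodazole arrays, at -0.63 ± 0.40, and averaged -1.93 ± 2.16 untreated (SD, n = 4 each). The share of all features negative on those arrays was not counted. Zfp42 had a positive ratio on all 4 untreated arrays in this reading, at 0.16 ± 0.13, with -0.02 ± 0.20 under nocodazole (SD, n = 4 each). Esrrb was positive on all 4 untreated arrays too, as were 11.5% of 12757 features with a value on each. Sox2 was at -0.04 ± 0.31 and 0.27 ± 0.58 (SD, n = 4 each, nocodazole and untreated). The group means of Lefty1 and Esrrb were positive in both readings.

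**Figure D3:**
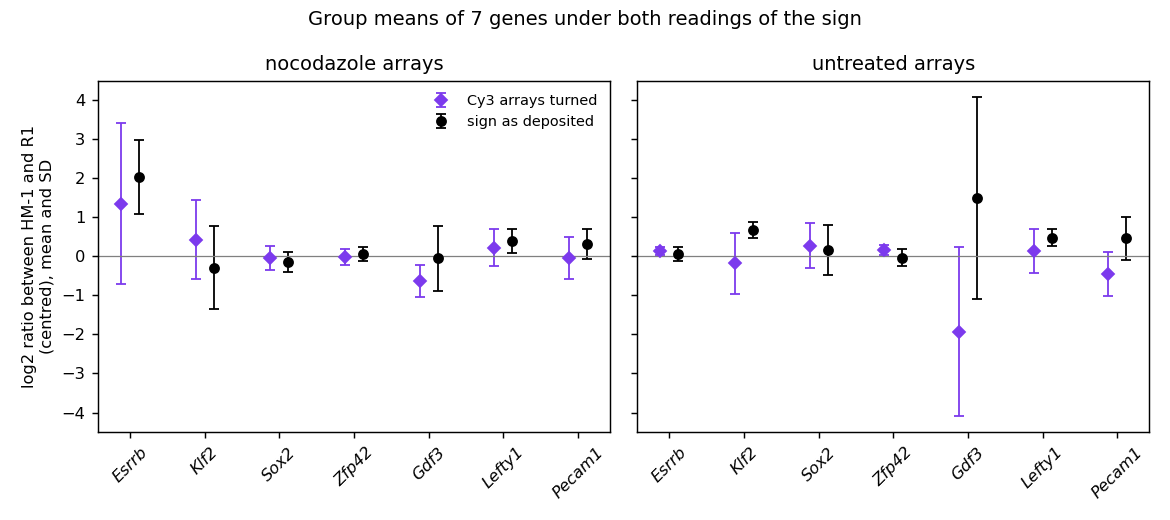
Group means with SD of the 7 genes (vertical axis, centred log2 ratio) on nocodazole arrays (left panel) and untreated arrays (right panel), with the Cy3 arrays turned (purple diamonds) and with the sign as deposited (black circles). The untreated means of Klf2, Gdf3, Pecam1 and Zfp42 differ in sign between the readings, at -0.18, -1.93, -0.45 and 0.16 turned against 0.68, 1.50, 0.46 and -0.03 as deposited, while those of Esrrb, Sox2 and Lefty1 are positive in both.

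Across all 14015 features, limma called none at an adjusted p under 0.05 in any of the 4 comparisons (0.0% called), and 0 of the 7 genes passed. Their adjusted p was 0.999 with nocodazole, between 0.758 and 1 untreated, between 0.897 and 0.997 for the mean of both conditions and 0.996 for the change between conditions. In the turned reading 0 features were called as well, and the smallest adjusted p of the 7 genes was 0.319 (Gdf3 untreated). With no adjustment, p was under 0.05 for 2 of the 7 with nocodazole (Esrrb and Pecam1; 2.89% of all features), 3 untreated (Gdf3, Lefty1 and Pecam1; 6.34%), 4 for the mean (Esrrb, Gdf3, Lefty1 and Pecam1; 5.53%) and 1 for the change (Esrrb; 3.28%). These contrasts took part in the choice of the genes, and nothing is read from the counts, which are for the sign as deposited. Turned, the untreated fitted ratios of Gdf3 (-1.93) and Pecam1 (-0.45) were negative, with an unadjusted p in limma of 0.00952 and 0.0134. In that reading p was 0.101 for Esrrb and 0.102 for Pecam1 with nocodazole, and 0.345 for Lefty1 untreated.

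With the sign as deposited, of the 21 pairs among the 7 genes 7 had a positive and 14 a negative Pearson's r, between -0.51 (Esrrb and Gdf3, 7 arrays) and 0.65 (Gdf3 and Pecam1, 8 arrays, the pair that separated by dye label). These are descriptions over arrays that share the dye label and the array itself. As deposited, on nocodazole replicate 1, 2 of the 6 measured genes were positive. On each of the other 7 arrays between 4 and 6 of the 7 were positive.

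Among 7487 named genes measured on all arrays, those with the most similar pattern were found by Pearson's r of the deposited ratios over the 8 arrays, or 7 for Esrrb, among 7488 genes. For Esrrb these were Cyp2c70 (r = 0.98), Agps, an enzyme of ether lipid synthesis (0.96), and Tma7 (0.95). The ratio of Cyp2c70 was -0.10 ± 0.63 with nocodazole and -1.34 ± 0.15 untreated (SD, n = 4 each). That nocodazole mean includes replicate 1, on which Esrrb had no value and which did not enter the r. For Klf2 they were Gm5646 (0.94), Tmem175, a lysosomal potassium channel (0.92), and the mitochondrial sirtuin Sirt4 (0.91). For Sox2 they were the mitochondrial carrier Slc25a44 (0.99), the adhesion molecule Icam2 (0.97) and Arpp21 (0.97). Zfp42 was matched by the kinetochore protein Mis12, the pyruvate dehydrogenase kinase Pdk1 and Nif3l1, each at 0.97.

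Gdf3 was matched by the kinetochore protein Cenph (0.99), the monoamine oxidase Maoa (0.97) and the heparan sulphate sulphotransferase Hs3st3b1 (0.96). Cenph was at -1.14 ± 0.87 with nocodazole and 0.43 ± 2.05 untreated (SD, n = 4 each). Lefty1 was matched by the polyadenylation factor Cpsf1 (0.96), Klk1b16 (0.95) and Plbd1 (0.95), and Pecam1 by the troponin Tnni2 (0.96), Ttc36 (0.96) and the incretin receptor Glp1r (0.95). With 8 arrays and so many genes compared, such values are the top of a long list and describe these arrays only.

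Of 37 genes on the naive pluripotency list, 22 had a probe, and 9 of the 15 that were not among the 7 were tested. With nocodazole 5 of the 9 were positive and 4 negative, with a median fitted ratio of 0.05. Untreated 7 were positive and 2 negative, with a median of 0.13, where the medians over all features tested were -0.01 and 0. Turned, 2 were positive with nocodazole and 6 untreated (medians -0.14 and 0.03). In either reading none passed the test in either direction. Mybl2, a cell cycle transcription factor, was at -0.19, 0.34, 0.22 and 0.25 with nocodazole, against 1.22, 0.18, 0.20 and 0.32 untreated, so that its untreated mean of 0.48 ± 0.50 (SD, n = 4) leaned on 1 array. Klf4, a relative of Klf2, was at -0.02 ± 0.17 with nocodazole and 0.13 ± 0.19 untreated (SD, n = 4 each). The growth factor gene Fgf4 was at 0.06 ± 0.18 and 0.19 ± 0.31, and Klf5 at -0.13 ± 0.19 and 0.62 ± 1.27 (SD, n = 4 each, nocodazole and untreated). The zinc finger factor Sall4 was at 0.17 ± 0.21 and -0.19 ± 0.39, and the chromatin corepressor Trim28 at 0.01 ± 0.06 and 0.02 ± 0.28 (SD, n = 4 each, nocodazole and untreated). Cdh1 was at -0.36 ± 0.55 and 0.34 ± 0.65 (SD, n = 4 each, in the same order). Rif1 was at 0.16 ± 0.48 and 0.05 ± 0.34, and Stat3 at -0.11 ± 0.13 and -0.02 ± 0.31 (SD, n = 4 each). Pou5f1 was not tested, at -1.26, 0.15 and -1.62 on nocodazole replicates 1 to 3 and 0.98 on untreated replicate 2. Nor were Nr5a2, Tcl1, Nr0b1, Utf1 and Alpl. Nr5a2 was at -1.34, -2.38, -0.84 and -0.75 with nocodazole. On untreated replicates 2 and 3 it was at -1.03 and -2.07. Tcl1 was at -1.28, 0.28 and -1.65 on nocodazole replicates 1 to 3 and -2.73 on untreated replicate 2. Nr0b1 was at -4.16, -1.73 and 0.88 on nocodazole replicates 1, 2 and 4 only. Utf1 averaged -0.38 with nocodazole (n = 3) and 0.44 untreated (n = 2), and Alpl 1.08 and 0.48 (n = 2 each).

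Of 30 genes on the Nodal pathway list, 16 had a probe, and of the 14 other than Lefty1 and Gdf3, 11 were tested. With nocodazole 5 were positive and 6 negative, and untreated 4 were positive and 7 negative with a median of -0.09. Turned, 4 were positive with nocodazole and 7 untreated (medians -0.10 and 0.04). No gene of the list passed the test. Drap1, a transcriptional corepressor that limits Nodal expression, was at 0.57, 4.79, 4.36 and 1.04 with nocodazole, against -1.89, -0.79, 1.26 and 0.32 untreated, which overlap. Of the signal transducers, Smad3 was at 0.20 ± 0.43 with nocodazole and 0.57 ± 0.54 untreated, and Smad2 at -0.03 ± 0.21 and 0.09 ± 0.12 (SD, n = 4 each). Their partner Smad4 was at -1.60, -2.01, -0.09 and -0.04 with nocodazole, against -0.34, 0.25, -0.19 and -0.46 untreated. The receptor gene Acvr1b was at 0.30 ± 0.86 and 0.14 ± 0.21, and Dand5, another secreted Nodal antagonist, at 0.12 ± 0.21 and -0.02 ± 0.12 (SD, n = 4 each, nocodazole and untreated). Furin, which processes the Nodal precursor, was at -0.15 ± 0.37 and -0.31 ± 0.22 (SD, n = 4 each, nocodazole and untreated). No probe was named Nodal, Tdgf1 or Lefty2.

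**Figure D4:**
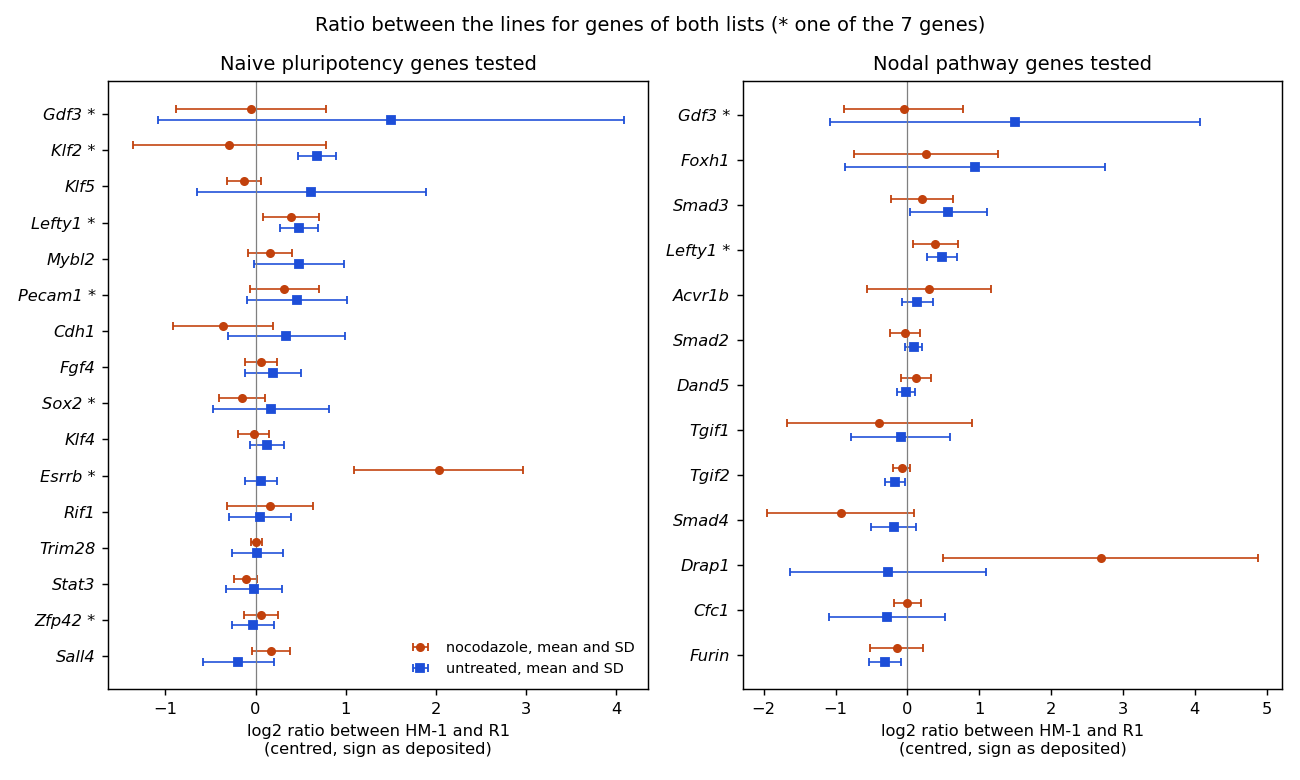
Mean log2 ratio between HM-1 and R1 with SD (horizontal axes, centred, sign as deposited) of the tested genes of the naive pluripotency list (left panel) and the Nodal pathway list (right panel), with nocodazole in orange above untreated in blue; asterisks mark the 7 genes. Drap1 (2.69 with nocodazole) and Smad4 (-0.93) carry wide bars, and their groups overlap.

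The sign of markers of primitive endoderm and of feeder fibroblasts depended on the reading. As deposited, of 24 primitive endoderm genes 17 were tested, with 14 negative with nocodazole (median -0.30) and 12 negative untreated (median -0.53). Feeder fibroblast markers were negative for 17 of 20 with nocodazole (median -0.15) and 14 of 20 untreated (median -0.14), where 51.4% and 51.1% of all features tested were negative. In the turned reading 6 of 17 primitive endoderm genes were negative with nocodazole and 8 untreated (medians 0.17 and 0.03), and 9 of 20 fibroblast markers with nocodazole and 8 untreated (medians 0.05 in both). On nocodazole replicate 1, which carried HM-1 in Cy5, 12 of 18 primitive endoderm genes were positive. None of these passed the test, and their part in the ratios of the 7 genes was not tested. For Pecam1, which endothelium also expresses, 9 endothelial markers were tested, 5 positive with nocodazole and 3 untreated as deposited (medians 0.05 and -0.08), and 4 and 5 when turned (medians -0.06 and 0.01). Among these Vwf was at 0.22 ± 1.42 with nocodazole (SD, n = 4) and 1.07 ± 0.19 untreated (SD, n = 3), and Egfl7 at -0.05 ± 0.14 and -0.25 ± 0.23 (SD, n = 4 each, nocodazole and untreated).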

How the data were processed

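The deposited table holds 1 log2 ratio per probe and array for 20355 probes. The sources used here do not give the authors' image software, background correction or normalization. Samples were labelled indirectly with Cy3 and Cy5, per the labels' protocols. That the deposited values are log2 follows from the values themselves; direction and normalization stay unknown. Deposited values above 10 in absolute log2, which code a ratio of 100000, were set to missing, and none fell on the 7 genes. Symbols came from the platform annotation (1 symbol for 14030 probes, several for 5, none for 6320), and 13994 of the probes matched RefSeq gene IDs (GRCm38.p6, used for names). Probes of 1 symbol were averaged per array, and arrays were centred on their median over 16255 features. The 14015 features with at least 3 values per group were tested.

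The test was limma 3.58.1 in R 4.3.3 (lmFit and eBayes over 8 arrays, coefficients for both groups and a dye term), two-sided with Benjamini-Hochberg adjustment at 0.05, and it was tested on simulated data. Replicates may be technical, so p-values cover the spread of these 8 arrays alone, and the number of arrays limits the precision. The design text speaks of 50% dye swaps where the labels give 37.5%. Replicate numbers were not used to pair the arrays in the main fit. The genes, lists, tests and alternatives were chosen with earlier results of these data known. Named are the 7 genes, members of the naive pluripotency and Nodal lists, of other lists some of the genes of smallest p, and the 3 genes most like each of the 7.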

Additional observations from a re-analysis of the deposited data

Results flagged for a closer look

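Of 29 groups of 4 arrays examined (the 7 genes, both Sox2 probes and list medians), 1 held an array far from the others by Dixon's ratio, where chance gives about 1 in 20. Sox2 was at 1.11 on untreated replicate 2 and between -0.23 and -0.04 on the other three untreated arrays. Its probes were at 1.88 (probe 20333) and 0.34 (probe 6891) on that array.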

How the results depend on the processing

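Each comparison was refitted under 21 other settings. The count of features past the threshold in limma was 0 in 83 of 84 cases. The exception was 1 unnamed probe (1.34, adjusted p = 0.0317) with nocodazole when only features measured on all 8 arrays were tested, and this probe, named after its value was seen, is none of the 7 genes. With single replicates left out the counts stayed at 0. With the replicate block the counts were 0 too. Deviations of same-numbered arrays from their group means correlated at 0.13, 0.02, -0.05 and 0.09. Arrays of different numbers were not compared, and the dye of HM-1 differed between the conditions for replicate 3, so this check cannot decide on pairing.

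The group means of the 7 genes moved by less than 1 SD in 80 of 84 cases under other settings. Among these, the median of probes and the coded values kept could not move a mean. No gene had more than 2 probes, and no coded value fell on the 7 genes. The SD was that of each group itself, so means of wide groups could move far and still count among the 80. Turned, the nocodazole mean of Klf2 went from -0.29 to 0.43, a change of sign, and that of Esrrb from 2.03 to 1.35. With whole-number ratios left out, the nocodazole mean of Esrrb was 2.86 on 1 array. With 1 array left out, a mean of 3 or 4 values cannot move by 1 SD, so only the ranges are given. With the Cy3 arrays turned, the untreated means of Klf2 (-0.18), Gdf3 (-1.93), Lefty1 (0.14) and Pecam1 (-0.45) moved further, by the construction of that setting. With an array left out, nocodazole means lay between 1.61 and 2.54 (Esrrb), -0.62 and 0.10 (Klf2), -0.28 and -0.09 (Sox2), 0 and 0.14 (Zfp42), -0.45 and 0.17 (Gdf3), 0.25 and 0.49 (Lefty1) and 0.19 and 0.48 (Pecam1). Untreated means lay between 0 and 0.13 (Esrrb), 0.61 and 0.75 (Klf2), -0.15 and 0.30 (Sox2), -0.13 and 0.05 (Zfp42), 0.55 and 2.57 (Gdf3), 0.43 and 0.58 (Lefty1) and 0.24 and 0.63 (Pecam1). Leaving out whole-number ratios was chosen after the data were seen.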

Other observations

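Paralogues and wider family members of the 7 genes, LIF pathway genes and genes of primed pluripotency did not pass the test at an adjusted p under 0.05 in limma. Of 14 tested paralogues and family members 6 were positive with nocodazole and 12 untreated as deposited (medians 0 and 0.21). With the Cy3 arrays turned 4 and 7 were positive (medians -0.16 and -0.01). The 14 included Icam1, Icam2, Vcam1 and Bmp4, which are relatives only in the wider sense. Klf3, a repressor of the Krüppel-like family, was at -0.91 ± 1.46 with nocodazole and 1.0 ± 1.14 untreated, and Sox11 at 0.35 ± 0.37 and 0.18 ± 0.20 (SD, n = 4 each, nocodazole and untreated). Esrra, a relative of Esrrb, was at -0.02 ± 0.31 with nocodazole (SD, n = 3) and 0.28 ± 0.12 untreated (SD, n = 4), and its groups overlapped. Of 11 LIF and STAT3 genes 5 were positive with nocodazole and 7 untreated (medians -0.04 and 0.13), and turned 4 and 8 (medians -0.09 and 0.10). The receptor subunit Il6st was at 0.27 ± 0.14 and 0.17 ± 0.34, and Junb at 0.11 ± 0.13 and 0.44 ± 0.64 (SD, n = 4 each, nocodazole and untreated). Jak2 was at -2.38 ± 2.44 with nocodazole and 0.24 ± 1.74 untreated (SD, n = 3 each). Of 6 genes of primed pluripotency 1 was positive with nocodazole and 3 untreated (medians -0.14 and 0), and turned 3 and 2 (medians 0 and -0.18). As deposited that 1 was the DNA methyltransferase Dnmt3a, at 0.29 ± 0.21 and 0.19 ± 0.83 (SD, n = 4 each, nocodazole and untreated). Of the trophectoderm list 3 genes were tested, with 2 negative in each condition (medians -0.27 and -0.05) and 1 in each when turned (medians 0.16 and 0.22). Krt8 was at -0.49 ± 1.27 with nocodazole and -0.98 ± 0.35 untreated (SD, n = 4 each).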
